A study of Mus musculus with 3 samples.

Results

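The 41 genes described here encode the enzymes of glycolysis, the pentose phosphate pathway and the TCA cycle, with the glucose importer Slc2a1, the lactate exporter Slc16a3 and the regulator Pfkfb3. They were taken by symbol from a list of names, and all 41 were found among the 55341 gene symbols of the tables. The list holds 18 glycolysis, 4 pentose phosphate and 19 TCA genes, the last with 2 pyruvate dehydrogenase subunits and the cytosolic enzymes Idh1 and Mdh1.

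The libraries hold ribosome-depleted RNA from the cytosol of macrophages that were grown from C57BL/6J mouse bone marrow. All cells received Lipid A, the part of bacterial lipopolysaccharide that TLR4 senses, at 100 ng/ml for 12 h. They then spent 12 h without it and received 100 ng/ml again for 120 min. The labels give this 1 group with 3 replicates, no untreated cells, and 1 donor entry shared by all, so levels are described and no condition is tested.

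Glycolysis splits glucose into pyruvate in the cytosol, and lactate dehydrogenase turns pyruvate into lactate. The pentose phosphate pathway branches off at glucose 6-phosphate and yields NADPH and ribose. Pyruvate dehydrogenase feeds the TCA cycle in mitochondria, and macrophages that sense lipopolysaccharide are known for a shift of this balance towards glycolysis and for altered flow through the cycle.

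Library totals were 29376859 expected counts in replicate 1, 64822118 in replicate 2 and 37665844 in replicate 3. A single member took between 199 (Pfkm in replicate 1) and 50712 (Gapdh in replicate 2) of these. The 16 macrophage markers all reached 10 TPM in each library. Of the markers of other cells, 0 of 8 for T and NK cells, 0 of 6 for B cells, 0 of 7 for stroma and 0 of 7 for the erythroid line were at 1 TPM or more in each library, as were 2 of 9 for neutrophils and 2 of 6 for endothelium, Kdr at 7.09, 3.24 and 2.29 TPM being the highest of these by mean. Replicate 3 stood apart in RNA known to stay in the nucleus, with a summed level of 322, 176 and 2016 TPM in replicates 1, 2 and 3, and in 13 mitochondrial-encoded genes, which summed to 1536, 1245 and 3953 TPM. Values below are TPM, a measure per transcript length, in the order of replicates 1, 2 and 3, or as mean ± SD (n = 3). Fewer cells of a type and less RNA per cell cannot be told apart in such libraries.

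Pyruvate kinase, the last step of glycolysis, is made from a gene with a choice between alternative exons. Pkm (ENSMUSG00000032294.17, chromosome 9, 59656368 to 59679375, mm10, plus strand) carries a pair of exons of 167 bases each, of which a transcript holds either the upstream M1 exon or the downstream M2 exon. The M2 enzyme is known as the form of proliferating and activated cells that allosteric ligands switch on and off. Both are coding exons, the ninth of their transcripts. They are printed 5′ to 3′ with capitals at the positions where they differ, which let reads tell the exons apart. Pkm-201, with the M2 exon, and Pkm-202, with the M1 exon, also differ at their ends. Their first exons have 282 and 77 bases and their last exons 648 and 462. Transcript shares thus need not rest on the M1 and M2 exons alone.
Pkm M1 exon, chr9:59675029-59675195: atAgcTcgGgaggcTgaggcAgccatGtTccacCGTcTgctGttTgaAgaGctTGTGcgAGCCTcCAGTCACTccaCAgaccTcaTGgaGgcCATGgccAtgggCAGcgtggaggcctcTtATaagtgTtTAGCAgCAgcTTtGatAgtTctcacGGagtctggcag
Pkm M2 exon, chr9:59675568-59675734: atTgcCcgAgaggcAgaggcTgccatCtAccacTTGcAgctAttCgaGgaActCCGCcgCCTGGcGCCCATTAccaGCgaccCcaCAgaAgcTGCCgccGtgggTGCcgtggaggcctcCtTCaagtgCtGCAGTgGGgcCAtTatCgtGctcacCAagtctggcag
The exons carry the same base at 103 of 167 positions, which is 61.7%. Transcripts with the M2 exon stood at 113, 130 and 107 TPM and those with the M1 exon at 17.8, 16.7 and 19.5 TPM. M2 thus held 86.4%, 88.6% and 84.5% of their sum, 86.5% ± 2.03, and the M2 level lay above the M1 level in each library. The second deposited quantification gave 86.2% ± 1.82. Pkm-203, a transcript annotated with a retained intron, begins its last exon with the M1 sequence and was counted with M1.

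Glycolysis and pentose phosphate genes stood higher than TCA genes as lists. The median of the 18 glycolysis genes was 48.8, 56.5 and 46.9 TPM, that of the 4 pentose phosphate genes 40.8, 52.8 and 41.1, and that of the 19 TCA genes 19.2, 18.3 and 20.96. On log2(TPM + 1), the glycolysis median lay 1.33 ± 0.23 above the TCA median and the pentose phosphate median 1.15 ± 0.28 above it, in the same direction in 3 of 3 libraries. The glycolysis median lay 0.18 ± 0.08 above the pentose phosphate median, but with the mean of log2 values the order of this pair turned to -0.48 ± 0.18, while the mean of TPM kept it at 66.7 ± 5.10 against 43.9 ± 6.87. Over the 8601 protein-coding genes that reached 1 TPM in each library the median was 8.03 ± 0.594. All 41 members reached 1 TPM in each library, 32 reached 10 TPM and 3 reached 100 TPM, beside 3366 and 372 of those 8601 genes at the last 2 levels. These counts depend on the TPM scale, since the glycolysis median was 24.4 TPM in the second quantification and 170 TPM when TPM were rescaled to protein-coding and long noncoding genes.

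**Figure D1:**
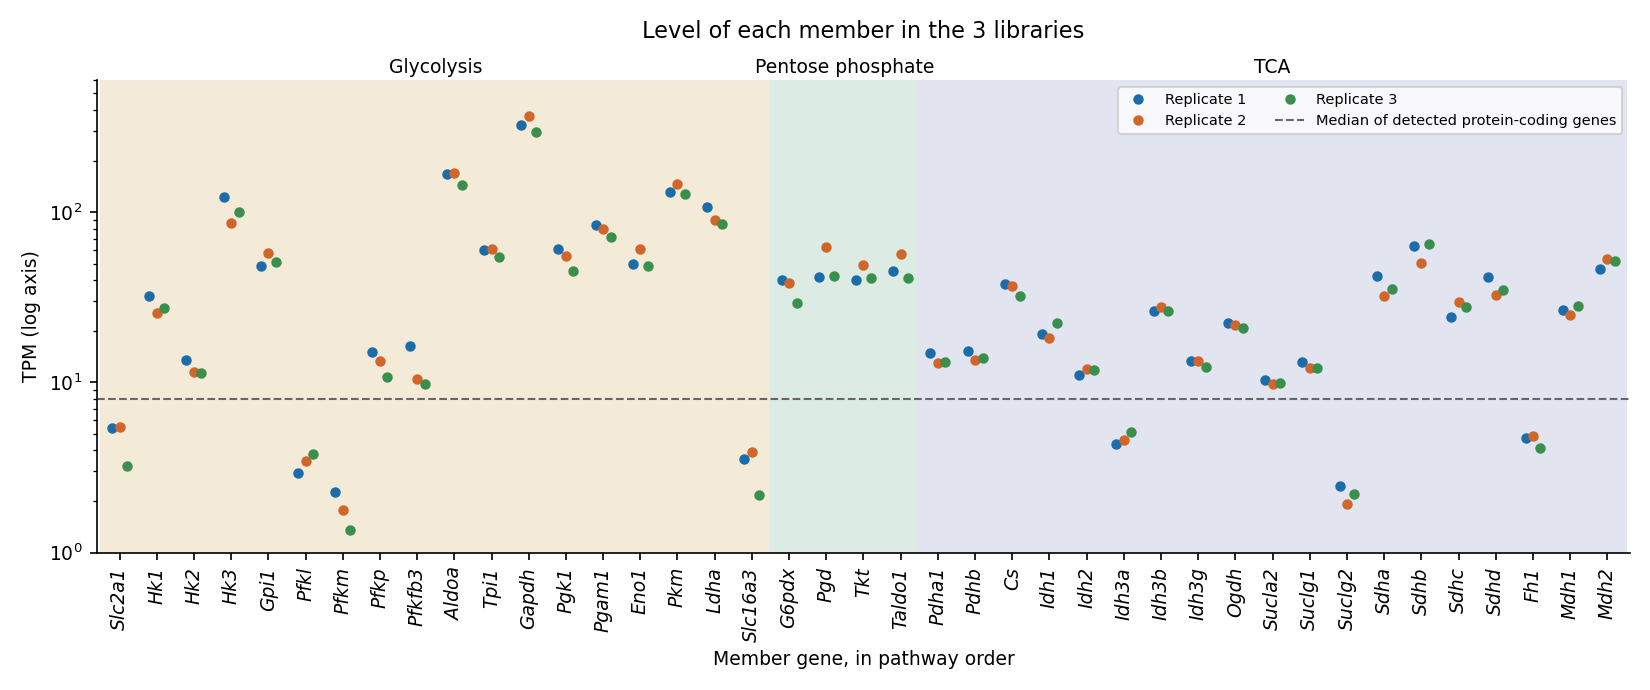
TPM on a log axis for each of the 41 members in pathway order, with 1 point per library and a dashed line at 8.03 TPM, the median of protein-coding genes of at least 1 TPM. The glycolysis genes span from Pfkm to Gapdh, the 4 pentose phosphate genes lie close together, and 7 members lie below the line in all libraries.

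The range between the highest and the lowest gene differed between the lists. Within glycolysis the highest gene, Gapdh, stood 145, 208 and 218 times above the lowest, Pfkm. Within the TCA list Sdhb stood 25.7, 27.6 and 29.4 times above Suclg2. The 4 pentose phosphate genes lay within 1.13, 1.62 and 1.42 times of each other. Pfkm and Suclg2 are minor paralogs of their steps, so these ranges are between genes and not between summed steps.

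Sugar entry showed a low Slc2a1 and a high Hk3. Slc2a1, the GLUT1 importer, stood at 5.36, 5.49 and 3.21 TPM, lowest in replicate 3. Among the other importers looked at, Slc2a6, a transporter of lysosomal membranes, stood at 104, 94.1 and 71 TPM, 19.6 ± 2.49 times the Slc2a1 level, and Slc2a3 at 0.63, 0.68 and 0.86.

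Hexokinases phosphorylate glucose and so hold it in the cell. Hk3 (ENSMUSG00000025877.14, chromosome 13, 55005985 to 55021385), the form of myeloid cells, stood at 124, 86.9 and 101 TPM, Hk1, the form of most tissues, at 32.4, 25.6 and 27.4, and Hk2, the form known as inducible, at 13.5, 11.5 and 11.3. The 3 ranges did not overlap, and the order held in each library. Hk3 held 73, 70.1 and 72.2% of the summed hexokinase TPM, a mean of 71.8% ± 1.5. Hkdc1, a further hexokinase, was listed at 0 TPM in all libraries. Adpgk, which phosphorylates glucose with ADP, stood at 5.37 ± 1.01 TPM. Gpi1, the isomerase that follows, stood at 52.4 ± 4.9 TPM.

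Phosphofructokinase, the committed step, had the lowest summed level among the steps that turn 1 glycolytic intermediate into the next. Its genes summed to 20.2, 18.6 and 15.8 TPM, against 169.7, 124 and 139.7 for the hexokinases and 168, 170.2 and 144 for Aldoa, the aldolase that acts next. Pfkp, the platelet-type form, stood at 15, 13.4 and 10.7 TPM, Pfkl, the liver-type form, at 2.92, 3.44 and 3.78, and Pfkm, the muscle-type form, at 2.26, 1.77 and 1.35. Pfkp led in each library with 71.3% ± 3.42 of the sum. The Pfkl share was uneven at 14.5, 18.5 and 23.9%. Pfkfb3, which makes the activator fructose 2,6-bisphosphate, stood at 16.3, 10.5 and 9.82 TPM with replicate 1 above the others, and its paralogs Pfkfb4, Pfkfb2 and Pfkfb1 stood at 4.11 ± 0.718, 1.81 ± 0.168 and 0.457 ± 0.0764.

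From aldolase to lactate the genes were abundant, and for most steps 1 paralog held nearly all of the RNA. Gapdh (ENSMUSG00000057666.18, chromosome 6, 125161715 to 125166467), which makes the first NADH of the pathway, was the highest member at 327, 369 and 295 TPM, 2.05 ± 0.11 times Aldoa and 6.2 ± 0.707 times Pgk1, the kinase that acts on its product. Pkm followed at 132, 147 and 128 TPM and Ldha, the lactate-forming dehydrogenase, at 107, 89.9 and 85.2. Ldha lay below Pkm in each library, at 0.697 ± 0.104 of its level. Tpi1, which interconverts the triose phosphates, stood at 58.5 ± 3.42 TPM, Pgk1 at 53.7 ± 7.89, the mutase Pgam1 at 78.8 ± 6.33 and the enolase Eno1 at 53 ± 7.06. The 9 genes from the hexokinases to Tpi1 had a median of 28.5 ± 3.51 TPM and the 5 from Gapdh to Pkm one of 78.9 ± 6.33.

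Paralogs known from other tissues were low. Ldha held 99.2% ± 0.182 of the lactate dehydrogenase TPM, with Ldhb, the heart-type subunit, at 0.73, 0.94 and 0.69 TPM. Aldoa held 99.5% ± 0.156 of aldolase, and Pklr, the liver and red cell pyruvate kinase, was listed at 0 TPM. Enolase was less one-sided. Eno2, the neuronal form, stood at 4.39, 3.81 and 7.12 TPM and held 8.81% ± 3.46, with its highest share in replicate 3.

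RNA of the member lactate transporter was low. Slc16a3, the MCT4 exporter, stood at 3.54, 3.89 and 2.18 TPM, so Ldha lay 30.3, 23.1 and 39.1 times above it. Slc16a7, the MCT2 transporter, stood at 16, 11.2 and 11.5 TPM, 4.23 ± 1.23 times the Slc16a3 level, and Slc16a1, MCT1, at 0.48, 0.88 and 0.52. Of 24 other glycolysis genes 8 were at 1 TPM or more in each library, none was at 100 TPM or more in each, and 7 were listed at 0 throughout. The 3 highest of them were Slc2a6, Slc16a7 and Adpgk.

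By gene TPM, the pentose phosphate members formed an even set. This holds for whole genes only, since 79.6% of the Tkt TPM lay in transcripts not annotated as protein coding, as described below. G6pdx, the NADPH-forming first enzyme, stood at 39.8, 38.5 and 29.5 TPM. Pgd, the second NADPH-forming dehydrogenase, stood at 41.5, 62.2 and 42, and replicate 2 lay above the other libraries. In the non-oxidative branch Tkt, the transketolase, stood at 40.2, 48.8 and 41.3 and Taldo1, the transaldolase, at 45.1, 56.8 and 40.9. Tkt and Taldo1 overlapped, with a ratio of Taldo1 to Tkt of 1.12, 1.17 and 0.99. Where glucose 6-phosphate can go to either pathway, Gpi1 lay above G6pdx in each library, at 1.21, 1.5 and 1.73 times its level. This order too holds for whole genes only. Transcripts not annotated as protein coding held 35.7% of the Gpi1 TPM and 0.397% of the G6pdx TPM, and the coding transcripts alone were not compared.

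The enzymes between these steps were lower. Pgls, the lactonase between G6pdx and Pgd, stood at 16.9 ± 0.939 TPM, Rpe, the ribulose phosphate epimerase, at 12.7 ± 2.9, and Rpia, the isomerase that makes ribose 5-phosphate, at 2.34 ± 0.275. Tkt lay 18.7 ± 2.53 times above Rpia. Of 12 other pentose phosphate genes 7 were at 1 TPM or more in each library and 2 at 10 TPM or more, while the transketolase-like genes Tktl1 and Tktl2 and the retrogene G6pd2 were listed at 0. The 3 highest were Pgls, Rpe and Prps2, which makes phosphoribosyl pyrophosphate, at 4.87 ± 0.488 TPM.

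At pyruvate, the lactate-forming gene stood well above the genes of the first pyruvate dehydrogenase component. It stood less far above Mpc1, a subunit of the mitochondrial pyruvate carrier, at 56.3, 34.8 and 41.8 TPM. Pdha1 and Pdhb, the alpha and beta subunits of the first pyruvate dehydrogenase component, stood at 14.9, 12.9 and 13.2 and at 15.3, 13.6 and 14 TPM and kept a ratio of Pdhb to Pdha1 of 1.05 ± 0.0144. Ldha lay 7.21, 6.95 and 6.44 times above Pdha1, and the second quantification gave 6.76 ± 0.567. Of the other parts of the complex Dlat stood at 6.29 ± 0.878, Dld, which is shared with other complexes, at 23.1 ± 3.55 and Pdhx at 3.15 ± 0.233. The kinases that switch the complex off were low, with Pdk3 at 3.2 ± 0.503, Pdk1 at 1.64 ± 0.238, Pdk2 at 0.813 ± 0.127 and Pdk4 listed at 0. The phosphatases that switch it on stood at 9.09, 4.71 and 5.67 TPM for Pdp1 and 1.75 ± 0.05 for Pdp2.

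Within the cycle, levels differed from step to step. Cs, the citrate synthase that opens the cycle, stood at 35.6 ± 3.04 TPM, 2.6 ± 0.229 times Pdha1. Among isocitrate dehydrogenases, Idh3b, Idh3g and Idh3a, the subunits of the NAD-linked enzyme, stood at 26.3, 27.8 and 26.2, at 13.4, 13.3 and 12.3 and at 4.32, 4.58 and 5.12 TPM. Idh3b lay 6.09, 6.08 and 5.12 times above Idh3a, although both belong to 1 complex. Idh1, the cytosolic NADP-linked form, stood at 19.2, 18.3 and 22.4 and Idh2, the mitochondrial one, at 11.1, 12 and 11.9, so Idh2 had 0.588 ± 0.0627 of the Idh1 level.

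In the middle of the cycle the ligase subunits stood below the dehydrogenase components. Ogdh, the first component of 2-oxoglutarate dehydrogenase, stood at 21.6 ± 0.66 TPM and Dlst, its second component, which is no member, at 22.7 ± 1.18, with overlapping ranges. Suclg1, the alpha subunit of succinyl-CoA ligase, stood at 13.2, 12.2 and 12.1. Its partners were Sucla2, the ADP-forming beta subunit, at 10.3, 9.76 and 9.97, and Suclg2, the GDP-forming one, at 2.47, 1.93 and 2.22. Sucla2 held 80.6, 83.5 and 81.8% of the beta subunit TPM.

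Succinate dehydrogenase is also complex II of the respiratory chain. Its 4 subunits, parts of 1 complex, summed to 160.4 ± 13.7 TPM, the highest sum of the cycle's steps. Such sums depend on how many genes a step has, and Mdh2 alone, at 50.4 ± 3.7 TPM, lay above the means of Sdha, Sdhd and Sdhc. This is by gene TPM. Transcripts not annotated as protein coding held 35.5% of the Mdh2 TPM, 2.65% for Sdha and 0 for Sdhd and Sdhc, and coding transcripts alone were not compared. Sdhb, the iron-sulfur subunit, stood at 63.6, 50.6 and 65.3 TPM, Sdha, the flavoprotein, at 42.4, 32.3 and 35.5, and the membrane anchors Sdhd and Sdhc at 41.8, 32.8 and 35 and at 24.4, 29.6 and 27.8. Sdhb led and Sdhc was last in each library, while Sdha and Sdhd kept a ratio of 1 ± 0.0168 and overlapped. The next enzyme was among the lowest members, Fh1, the fumarase, at 4.71, 4.86 and 4.14 TPM. Sdhb thus lay 13.5, 10.4 and 15.8 times above Fh1. The ratio of Mdh2, the mitochondrial malate dehydrogenase that closes the cycle, to Fh1 was 9.82, 11.0 and 12.5.

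Mdh2 stood at 50.4 ± 3.7 TPM and the cytosolic Mdh1 at 26.5 ± 1.55. Mdh2 held 63.5, 68.2 and 64.9% of their sum. Without Idh1 and Mdh1 the 17 mitochondrial genes had a median of 14.3 ± 0.911 TPM. Of 34 other TCA genes 25 were at 1 TPM or more in each library, 12 at 10 TPM or more and none at 100 TPM or more. The 3 highest were Mpc1, a subunit of the mitochondrial pyruvate carrier, at 56.3, 34.8 and 41.8 TPM, Slc25a10, the dicarboxylate carrier, at 37.7 ± 5.84, and Glud1, glutamate dehydrogenase, at 34.9 ± 0.483.

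**Figure D2:**
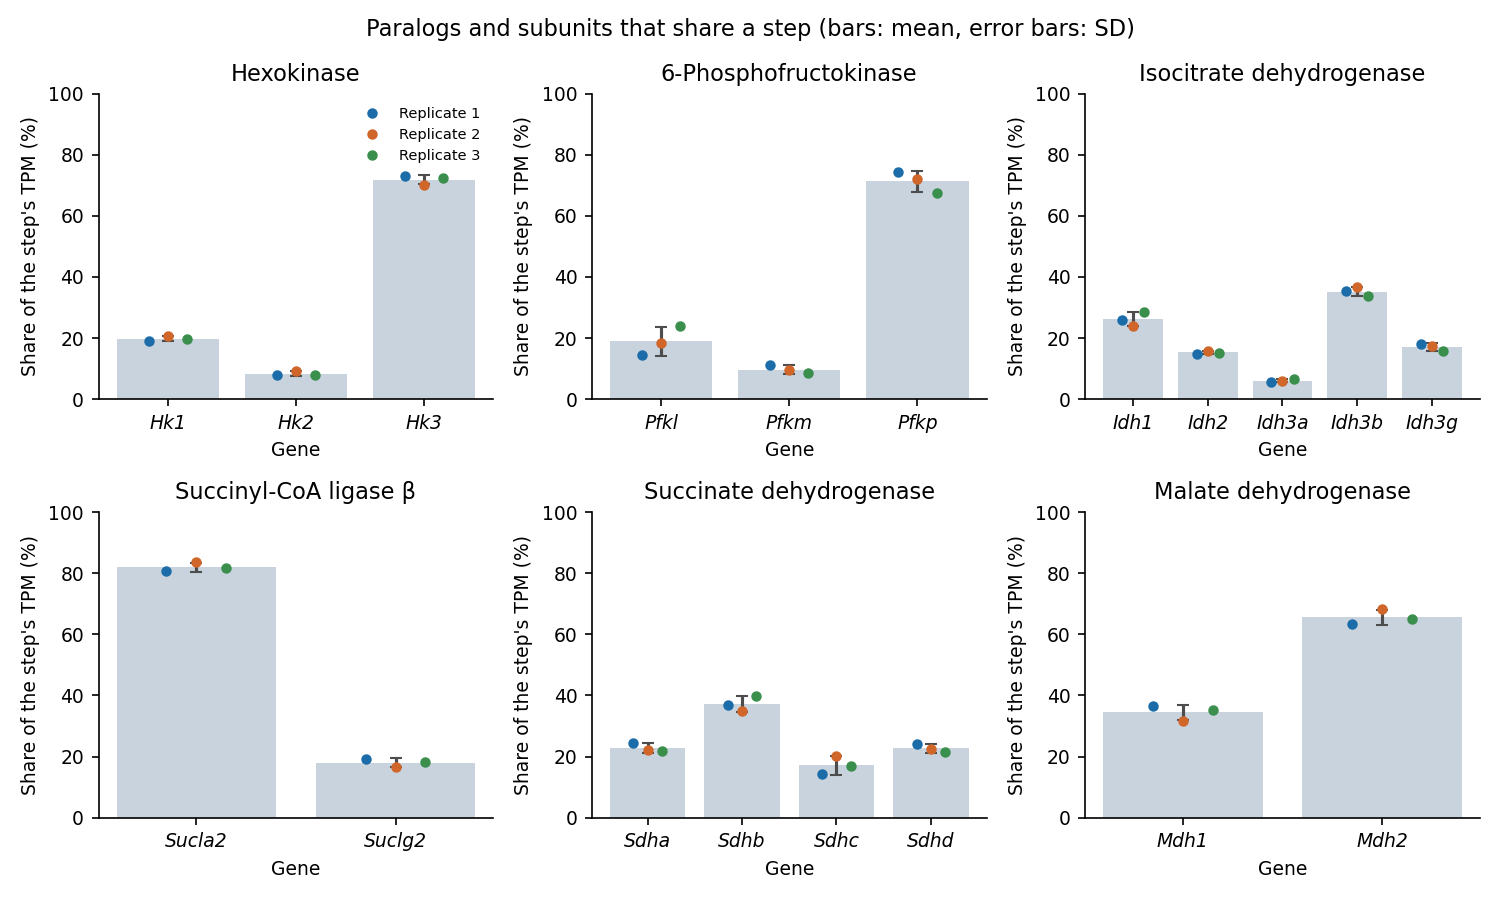
Share of the summed TPM of a step held by each of its genes, in percent, with bars for the mean, error bars for the SD and 1 point per library. Hk3 and Pfkp lead their steps in every library, with 71.8% and 71.3%, while the 4 succinate dehydrogenase subunits share theirs more evenly. For succinyl-CoA ligase only the beta subunits are shown, of which Sucla2 leads in every library with 82.0%.

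The enzymes that open each route, leaving aside the importer and pyruvate dehydrogenase, were Hk3 at 104 ± 18.6 TPM, G6pdx at 35.9 ± 5.63 and Cs at 35.6 ± 3.04. The ranges of G6pdx and Cs overlapped and both lay below that of Hk3. Among the members' steps that turn 1 intermediate into the next, the 6-phosphofructokinases were the low point in glycolysis, at a summed 18.2 ± 2.2 TPM. Fh1 was the low point in the cycle. By gene TPM, which for Tkt is mostly from transcripts not annotated as coding, no step of the 4 pentose phosphate members was as low as either. Rpia, which is no member, stood at 2.34 ± 0.275 TPM. At the exits Ldha lay at 94.1 ± 11.6, Taldo1 at 47.6 ± 8.27 and Mdh2 at 50.4 ± 3.7, and the ranges of the last pair overlapped. In glycolysis 11 of 18 genes and in the pentose phosphate pathway 4 of 4 lay in every library above the highest of the 3 TCA medians, as did 8 of 19 TCA genes. This rule was not counted over other genes. By mean TPM, 74.6% of the protein-coding genes of at least 1 TPM in each library lay below the mean of the TCA medians. Sorted by mean, 7 of 17 neighbouring pairs in glycolysis, 1 of 3 in the pentose phosphate pathway and 8 of 18 in the TCA list did not overlap between libraries. Such pairs were not counted over other genes, and their number depends on how closely the levels of a list lie, so these counts only describe the lists.

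The libraries themselves differed in these genes. Between libraries, expected counts were compared as CPM, counts per library total, scaled by TMM, a method that sets the bulk of genes equal. Beyond counting error, 38 of 41 members differed (chi-square test, Benjamini-Hochberg adjusted over all 14540 genes tested, threshold 0.05), with 18 of 18, 4 of 4 and 16 of 19 in glycolysis, the pentose phosphate pathway and the TCA list. The 3 others were Pdhb, Suclg2 and Mdh1. Of all genes tested 71.9% differed, and of the 7893 with at least the 999 summed counts of the lowest member 84.6% did. The test compares these libraries and no conditions.

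Between libraries 5 members spanned over 1.5-fold from the lowest to the highest, 3 in glycolysis, 2 in the pentose phosphate pathway and none in the TCA list. Of all genes tested 39.2% did, and of genes with at least the counts of the lowest member 15.4%. Pgd stood at 131, 239 and 147 CPM, 1.82-fold, with replicate 2 above the others. Slc2a1 stood at 23.7, 31.9 and 16.7, 1.91-fold, Slc16a3 at 11.5, 15.4 and 8.85, 1.74-fold, and Taldo1 at 69.1, 103 and 65.7, 1.56-fold, each highest in replicate 2 and lowest in replicate 3. Pfkfb3 differed from these in being highest in replicate 1, at 113, 87.7 and 69.2, 1.63-fold. Without replicate 2 only Pfkfb3 passed 1.5-fold, and without replicate 3 only Pgd, so single libraries decide this count. The share of all genes was not counted with a library left out.

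Replicate 2 was the highest library for most members. On this scale 33 of 41 members were highest there, 16 of 18, 4 of 4 and 13 of 19 by pathway, and 4 each in replicates 1 and 3. Of all genes tested 29.2% were highest in replicate 1, 38.8% in replicate 2 and 32.0% in replicate 3, and of the 7893 genes with at least the counts of the lowest member 45.3% were highest in replicate 2. The median log2 difference of replicate 2 from the mean of the others was 0.31 in glycolysis, 0.54 in the pentose phosphate pathway and 0.12 in the TCA list, beside 0.06 for those genes. The count depends on the scale, since on deposited TPM 16 members were highest in replicate 2 and 20 in replicate 1, where 17.1% and 64.1% of those genes were. Taken from the median of those genes, the 3 lists still lay 0.20, 0.46 and 0.07 above it on TPM, and 0.24, 0.48 and 0.06 on TMM-scaled counts. On all 4 of TMM-scaled counts, DESeq2-scaled counts, deposited TPM and the second quantification, 8 of 18, 3 of 4 and 5 of 19 were highest in replicate 2. On each scale alone, in this order, 45.3, 41.3, 17.1 and 58.2% of the genes of like depth were highest there. The share of these genes highest there on all 4 was not counted, so the joint counts only describe the members. Replicate 2 also had the most counts and the lowest level of nuclear RNA, and the part of either was not tested.

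**Figure D3:**
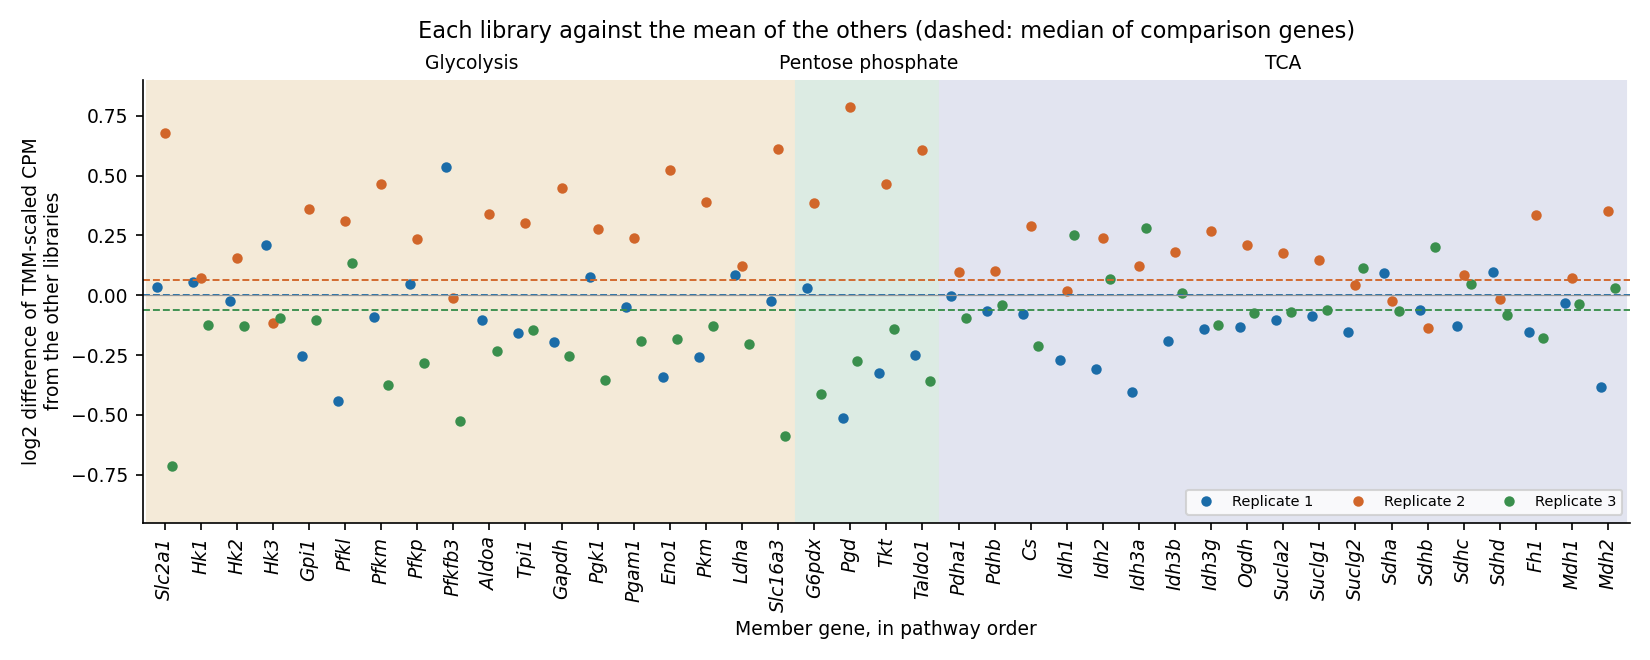
For each member, the log2 difference of the TMM-scaled CPM of 1 library from the mean of the other libraries, with dashed lines at the median of 7893 genes with at least the counts of the lowest member. Replicate 2 lies on top for 33 of 41 members, with Pgd and Slc2a1 at 0.79 and 0.68.

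At the level of transcripts, some members rested on 1 transcript and others were divided. The leading transcript held at least 90% of the gene's TPM for 19 members, and 22 members had at least 2 transcripts with 10% or more. The same transcript led in both deposited quantifications for 36 members. For Tkt and Idh3a the leader is annotated as non-coding.

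Tkt (ENSMUSG00000021957.7, chromosome 14, 30548359 to 30574720, plus strand) was led by Tkt-209, annotated as a processed transcript with no coding sequence, at 77.5% ± 1.09 and, in the second quantification, 84% ± 1.2. The coding Tkt-201 held 20.4% ± 2.71 and 14.1% ± 2.2. Tkt-209 shares 12 of its 14 exons with Tkt-201 and ends 1096 bases before it. Its first exon of 85 bases lies in intron 1 of Tkt-201 and is overlapped by Tkt-205, and it is printed because Tkt-201 does not hold it.
Tkt-209 exon 1, chr14:30557609-30557693, mm10, plus strand: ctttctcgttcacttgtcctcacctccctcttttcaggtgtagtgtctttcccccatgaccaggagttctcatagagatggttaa
The gene level of Tkt is a sum over these transcripts, so only a minor share of it was assigned to transcripts annotated as coding for the transketolase.

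Other members were divided as well, and in some the shares moved between the quantifications. Idh3a was led by Idh3a-203, a retained-intron transcript, at 45.9% ± 7.3, and in the second quantification by Idh3a-204, marked for nonsense-mediated decay, at 40.2% ± 11.9. Hk3 was split between the coding Hk3-201 at 37.4% ± 10.2 and Hk3-208 at 35.6% ± 2.18, with Hk3-201 at 61.4% ± 4.48 in the second quantification. Hk2-202, a short processed transcript, held 30.2% ± 2.44 of Hk2 in the first quantification and 0 in the second. For Fh1 the full-length Fh1-201 at 53.6% ± 0.744 stood beside Fh1-205 of 542 bases at 45.1% ± 2.05, and the second quantification gave 41.9% ± 7.2 and 43.6% ± 5.75. Gapdh divided between the coding Gapdh-203 at 52.3% ± 4.54 and Gapdh-202 at 45.3% ± 3.69, with 57.9% ± 2.2 and 40.8% ± 1.96 in the second quantification. Mdh2-203, marked for nonsense-mediated decay, held 34.9% ± 2.94 of Mdh2 and 13.5% ± 4.97 in the second quantification.

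**Figure D4:**
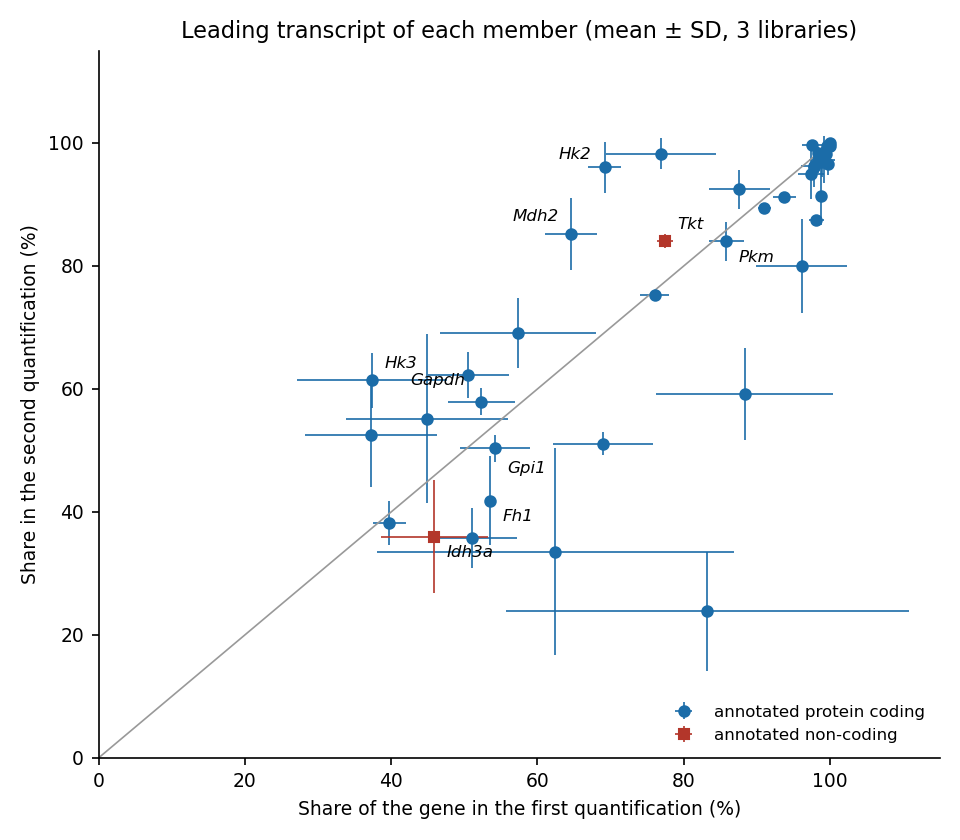
Share of each member's TPM held by its leading transcript, in percent, in the first (x axis) and the second (y axis) deposited quantification, as mean ± SD over 3 libraries, with the diagonal as equality. Tkt lies near 80% on both axes with a non-coding leader, and points below the diagonal are members whose leader held less in the second quantification.

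Sequence shared with other genes can move reads between them. The annotated coding transcript that led each member was split into words of 50 bases, and 24 members shared none with a transcript of another gene. At least 1% of words were shared by 9 of 18 glycolysis, 2 of 4 pentose phosphate and 3 of 19 TCA genes. Gapdh shared 82.5%, the most with the pseudogene Gm7336 at 9.42 ± 4.10 TPM, Eno1 72.2% and Pgk1 68.0%, so their levels are uncertain by what the quantifier gave to such copies. Of the closest copies of Eno1 and Pgk1, Eno1b stood at 1.47 ± 0.581 TPM and Pgk1-rs7 at 0.0733 ± 0.0808. Exons of 15 members overlap another gene, 13 of them on the other strand, and whether counting used the strand is not given in the sources used here. The overlap was 748 bases for Pfkp, with Pitrm1 at 7.76 ± 1.38 TPM, and 418 bases for G6pdx, with Ikbkg at 6.33 ± 0.865.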

How the data were processed

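Per the labels, the 3 libraries are cytosolic total RNA of 1 group. The deposited gene tables give, per the file headers, TPM and expected counts for rows of mm10 with annotation M21. The deposited transcript tables hold expected counts, TPM and the percent of a gene in each transcript, and a second deposited table holds estimated counts and TPM of another quantification. For the aligner and the quantifiers, name and version: not given in the sources used here. TPM were kept as deposited by the authors and run over all rows. Of 81881 rows 55450 were matched to a symbol through the transcript names. The others, which name no gene here, held 0.360%, 0.176% and 0.179% of the expected counts and stayed out of library sizes.

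Expected counts were rounded and scaled by TMM (edgeR 4.0.16) or DESeq2 1.42.0 size factors. Genes that reached 10 counts in 1 library or more entered the chi-square test, whose script was tested on simulated counts. Lists were compared on log2(TPM + 1). Tables and figures were made with Python 3.11.15 (matplotlib 3.10.9, scipy 1.17.1, pandas 2.3.3, numpy 2.4.6), scaling with R 4.3.3. Named with library values are members of steps with paralogs or subunits, the 5 highest, the 5 lowest and those over 1.5-fold. Of the other pathway genes, the 3 highest, paralogs and pyruvate dehydrogenase regulators are named. Members, lists and tests were chosen with earlier results of these data known. Whether the replicates are separate animals or cultures is not stated, and their spread may be technical only. The comparison genes of like depth and rescaled TPM for the highest library were added after seeing the data.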

Additional observations from a re-analysis of the deposited data

How the results depend on the processing

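The lists kept their order against the TCA list under every alternative run, while absolute levels and the counts over libraries moved. The medians of glycolysis, pentose phosphate and TCA genes were 24.4, 21.2 and 9.52 TPM in the second quantification and 170, 151 and 65.0 TPM when TPM were rescaled to the sum of protein-coding and long noncoding genes, which leaves other RNA out. With list means of TPM glycolysis, pentose phosphate and TCA stood at 66.7, 43.9 and 22.5. The glycolysis minus TCA difference was 0.79 with means of log2 values and 1.93 with enzymes of the pathways alone, and the pentose phosphate minus TCA difference 1.57 with enzymes alone. Glycolysis minus pentose phosphate was 0.0086 on TMM-scaled counts not corrected for length, 0.35 with enzymes alone and -0.48 with means of log2 values, although the means of TPM kept the order. Members over 1.5-fold numbered 11 in the second quantification, 0 at 2-fold, and 1 to 4 when a library was left out. The shares of all genes under these settings were not counted, so these numbers cannot be set against other genes. On deposited TPM 20 members were highest in replicate 1 and 16 in replicate 2, where 64.1% and 17.1% of the genes of like depth were. In the second quantification 1 member was highest in replicate 3, where 8.95% of such genes were. The cause of these shifts was not tested. The shares of Hk3, Pfkl and M2 moved by less than 1 SD in the second quantification. Leaving out 1 of 3 libraries cannot move a mean by 1 SD, so those runs give ranges only. These were 71.15 to 72.59% for Hk3, 16.48 to 21.18% for Pfkl and 85.48 to 87.51% for M2. No paired analysis was possible because there is 1 group. The intervals of the authors' quantifier, whose level is not stated, spanned a median of 1.11, 1.07 and 1.10 times from lower to upper bound in replicates 1, 2 and 3 and at most 2.05.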

Other observations

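Genes that move metabolites across the mitochondrial membrane lay in the range of the cycle's own enzymes. Mpc1 lay 2.47, 3.49 and 3.36 times above Mpc2, the other subunit of the pyruvate carrier, which stood at 22.8, 9.98 and 12.4 TPM with replicate 1 highest. Slc25a11, the 2-oxoglutarate carrier, and Slc25a1, the citrate carrier, stood at 28.6 ± 2.76 and 23.4 ± 1.46 TPM, and Acly, which cleaves exported citrate, at 21.6 ± 1.02. The aspartate aminotransferases of the malate shuttle were Got1, the cytosolic form, at 16.1 ± 1.77 and Got2, the mitochondrial form, at 10.7 ± 0.615.

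Genes of the routes from the cycle back to sugar were low. Pcx, pyruvate carboxylase, stood at 0.22, 0.24 and 0.14 TPM, Pck1, the cytosolic PEP carboxykinase, was listed at 0, and Pck2, the mitochondrial one, stood at 2.33, 1.3 and 1.48. Fbp1 and Fbp2, the fructose bisphosphatases that oppose phosphofructokinase, stood at 0, 0.02 and 0 and were listed at 0. Acod1, which takes cis-aconitate out of the cycle to make itaconate, stood at 1618, 1359.9 and 1131 TPM, below the summed 1859, 1874 and 1678 TPM of all 41 members in each library.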
